A study of Homo sapiens with 42 samples.

Results

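The genes described here are 36 acute-phase and STAT3 response genes, followed by their open chromatin in MCF10A cells. They were chosen by name, with earlier results of these data known. A peak was counted for a gene when its summit lay within 50 kb of any of the gene's annotated transcription starts in human genome build hg38. By this rule 9527 of the 2689076 peaks listed over 42 libraries belonged to the 36 genes, which is 0.354% of all peaks. Overlapping peaks of different libraries were joined into sites, and a site seen in only 1 library was dropped. This left 389 sites near the 36 genes, of 129344 sites over the genome.

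The acute-phase response is the rapid shift in secreted proteins that follows infection or injury, and the liver is its main source. It is driven by cytokines of the IL-6 family, which includes oncostatin M (OSM), leukemia inhibitory factor (LIF), IL-11 and CLCF1. These ligands bind receptors that share the chain IL6ST, activate JAK kinases and lead to phosphorylation of STAT3, which enters the nucleus and binds the palindrome TTCNNNGAA. STAT3 works beside C/EBP and NF-kB factors at many acute-phase genes, and epithelial cells outside the liver use part of the same program, with BCL3, SOCS3 and the serpins among the genes known to respond.

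Accessibility was measured by ATAC-seq, in which a transposase cuts and tags open DNA. MCF10A is an established line of non-tumorigenic human mammary epithelial cells. All cells were plated on collagen and moved to a medium with horse serum, hydrocortisone and cholera toxin and without EGF or insulin, and ligand was then added in the same medium. CTRL cells were collected at 0 h, with PBS at 0 ng/ml as their labelled treatment. The treated groups were PBS vehicle, EGF at 10 ng/ml, HGF at 40 ng/ml, OSM at 10 ng/ml, IFNG at 20 ng/ml with EGF, and TGFB at 10 ng/ml with EGF, each at 24 h and at 48 h. CTRL and both EGF groups had 4 libraries, and every other group had 3.

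Of the 6 sites that were called for OSM against PBS (the call is defined with the values further on), 5 are printed first, because the comparison turns on them. Each sequence holds the bases within 100 bp of the site's centre summit, on the forward strand of hg38, and capitals mark matches to a searched motif. The motifs were STAT (TTCNNNGAA, with the narrower STAT3 form TTCCNGGAA inside it), C/EBP (TTNNGCAA), AP-1 (TGANTCA) and NF-kB (GGANTTTCC), on both strands. The first 2 sites were detected more often with OSM, and the last 3 less often. The N4BP1 site, at chr16:48611816-48612016 in an intron of N4BP1, holds a C/EBP match. The SERPINA1 site, at chr14:94373817-94374017 in an intergenic stretch, holds an AP-1 match. So do the IL1R1 site at chr2:102048588-102048788 and the SBNO2 site at chr19:1098784-1098984, both intergenic. Intergenic here means outside protein-coding genes, and the IL1R1 site lies inside an annotated long noncoding RNA gene. The intergenic site between LIF and its neighbours, at chr22:30228702-30228902, holds none of the 5 motifs.
N4BP1 site: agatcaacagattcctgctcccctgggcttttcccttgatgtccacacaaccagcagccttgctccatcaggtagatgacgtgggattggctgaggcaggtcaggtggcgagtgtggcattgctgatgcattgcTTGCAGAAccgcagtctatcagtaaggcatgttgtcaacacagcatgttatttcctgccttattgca
SERPINA1 site: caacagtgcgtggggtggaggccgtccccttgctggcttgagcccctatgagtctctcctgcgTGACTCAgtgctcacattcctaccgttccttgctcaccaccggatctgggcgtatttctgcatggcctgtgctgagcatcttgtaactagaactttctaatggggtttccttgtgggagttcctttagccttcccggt
IL1R1 site: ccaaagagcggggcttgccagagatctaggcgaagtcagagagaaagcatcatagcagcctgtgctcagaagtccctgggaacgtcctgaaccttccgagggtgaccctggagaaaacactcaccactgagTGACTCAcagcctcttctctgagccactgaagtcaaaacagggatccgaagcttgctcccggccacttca
LIF and OSM site: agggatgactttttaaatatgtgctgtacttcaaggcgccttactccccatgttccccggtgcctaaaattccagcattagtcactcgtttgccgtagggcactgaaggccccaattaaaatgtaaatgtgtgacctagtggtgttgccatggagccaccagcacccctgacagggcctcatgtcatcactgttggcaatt
SBNO2 site: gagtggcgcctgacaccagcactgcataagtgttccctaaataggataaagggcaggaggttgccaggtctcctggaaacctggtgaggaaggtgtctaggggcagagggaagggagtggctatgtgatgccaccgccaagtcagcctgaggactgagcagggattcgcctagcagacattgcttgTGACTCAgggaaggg

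A further 3 sequences show where a STAT palindrome lay under a peak that was found in OSM libraries and in no other library. They were chosen after their values were seen. They are the IL4R intron site, given without the exon bases beside it, at chr16:27318507-27318634, the site between SERPINB4 and SERPINB3 at chr18:63647033-63647233, and the intergenic site upstream of BCL3 at chr19:44745397-44745597. The IL4R sequence also holds an AP-1 match, and the BCL3 sequence an NF-kB match.
IL4R site: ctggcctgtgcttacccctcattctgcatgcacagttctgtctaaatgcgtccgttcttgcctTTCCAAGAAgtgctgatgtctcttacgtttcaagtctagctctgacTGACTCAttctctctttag
SERPINB4 and SERPINB3 site: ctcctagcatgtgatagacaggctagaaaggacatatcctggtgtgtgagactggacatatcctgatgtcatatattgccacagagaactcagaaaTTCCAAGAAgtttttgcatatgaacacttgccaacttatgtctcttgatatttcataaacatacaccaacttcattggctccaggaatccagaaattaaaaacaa
BCL3 site: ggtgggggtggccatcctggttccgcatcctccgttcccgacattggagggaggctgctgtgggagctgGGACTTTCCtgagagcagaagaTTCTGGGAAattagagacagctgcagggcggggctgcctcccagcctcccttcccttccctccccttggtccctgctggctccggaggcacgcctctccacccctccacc

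Libraries differed widely in how many peaks they listed, from 4217 to 113805, and 8 libraries had fewer than 30000. These were 1 PBS library at 48 h, 1 OSM library at 48 h, 1 library of IFNG + EGF at each time, and 4 of the 6 libraries of TGFB + EGF. The 36 genes took 10 to 408 peaks of a library, or 0.237% to 0.432% of its peaks. The files hold no read counts, so depth was unknown and a site without a peak was only not detected. Detection was therefore adjusted: from the 1 or 0 of a site in a library was subtracted the share of equally common sites that this library detected, so that 0 is the rate usual for the library. Among mammary epithelial markers, the promoters of KRT8 and KRT18 had a peak in 36 libraries, ITGB4 in 37, KRT5 and CDH1 in 31, EPCAM in 26, KRT14 in 10 and TP63 in 0. Promoters of the hepatocyte genes ALB and APOA1 and of CD3E and CDH5 had none in any library, while the fibroblast marker COL1A1 had a promoter peak in 35 libraries, the immune marker CD14 in 36 and the endothelial marker PECAM1 in 29. PDGFRA, DCN and PTPRC, which mark fibroblasts and immune cells, had one in 7, 9 and 8 libraries. A change in the share of cells with an open site and a change of accessibility in each cell cannot be told apart in such bulk libraries.

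Around the 36 genes, 118 of the 389 sites lay within 1 kb of a transcription start of any protein-coding gene. Of the others, 20 lay in exons of such genes, 132 in introns and 119 between such genes. A gene had 1 to 32 sites, with a median of 11; CRP had 1 and SBNO2 had 32. For 194 sites a gene of the list was the nearest protein-coding gene, so the other sites lay closer to a gene outside it. A total of 37 sites were within reach of more than 1 of the 36 genes. OSM and LIF shared 14 of their 18 sites each, SERPINB3 and SERPINB4 shared 9 of 10 and 11, and the fibrinogen genes FGA and FGB shared 7 of 9 each, so these neighbours are not independent of each other. Only 2 sites were found in all 42 libraries, and 32 were found in 2.

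The promoter of HIF1A, the oxygen-regulated transcription factor, had a peak in 42 of 42 libraries. PIM1, a survival kinase and STAT3 target, and SOD2, the mitochondrial superoxide dismutase, each had one in 40, and NNMT, MCL1, IL6R and IL1R1 in 38. No promoter peak was kept for 9 genes, namely OSM, the liver proteins CRP, FGA, FGB, FGG, HP, LBP and HAMP, and the protease inhibitor A2M. A promoter site was present for 27 of the 36 genes (75%), against 73.2% of all 20007 protein-coding genes, and 17 of the 36 (47.2%) had it in 30 or more libraries, against 52.8% of all. SAA2, which encodes a serum amyloid A protein, had a promoter peak in 3 libraries, its neighbour SAA1 in 18, SERPINA3 in 4, SERPINB4 in 6 and LIF in 11. Promoter detection of LCN2, the siderophore-binding protein lipocalin 2, was 6 of 6 with PBS and 3 of 6 with OSM.

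**Figure D1:**
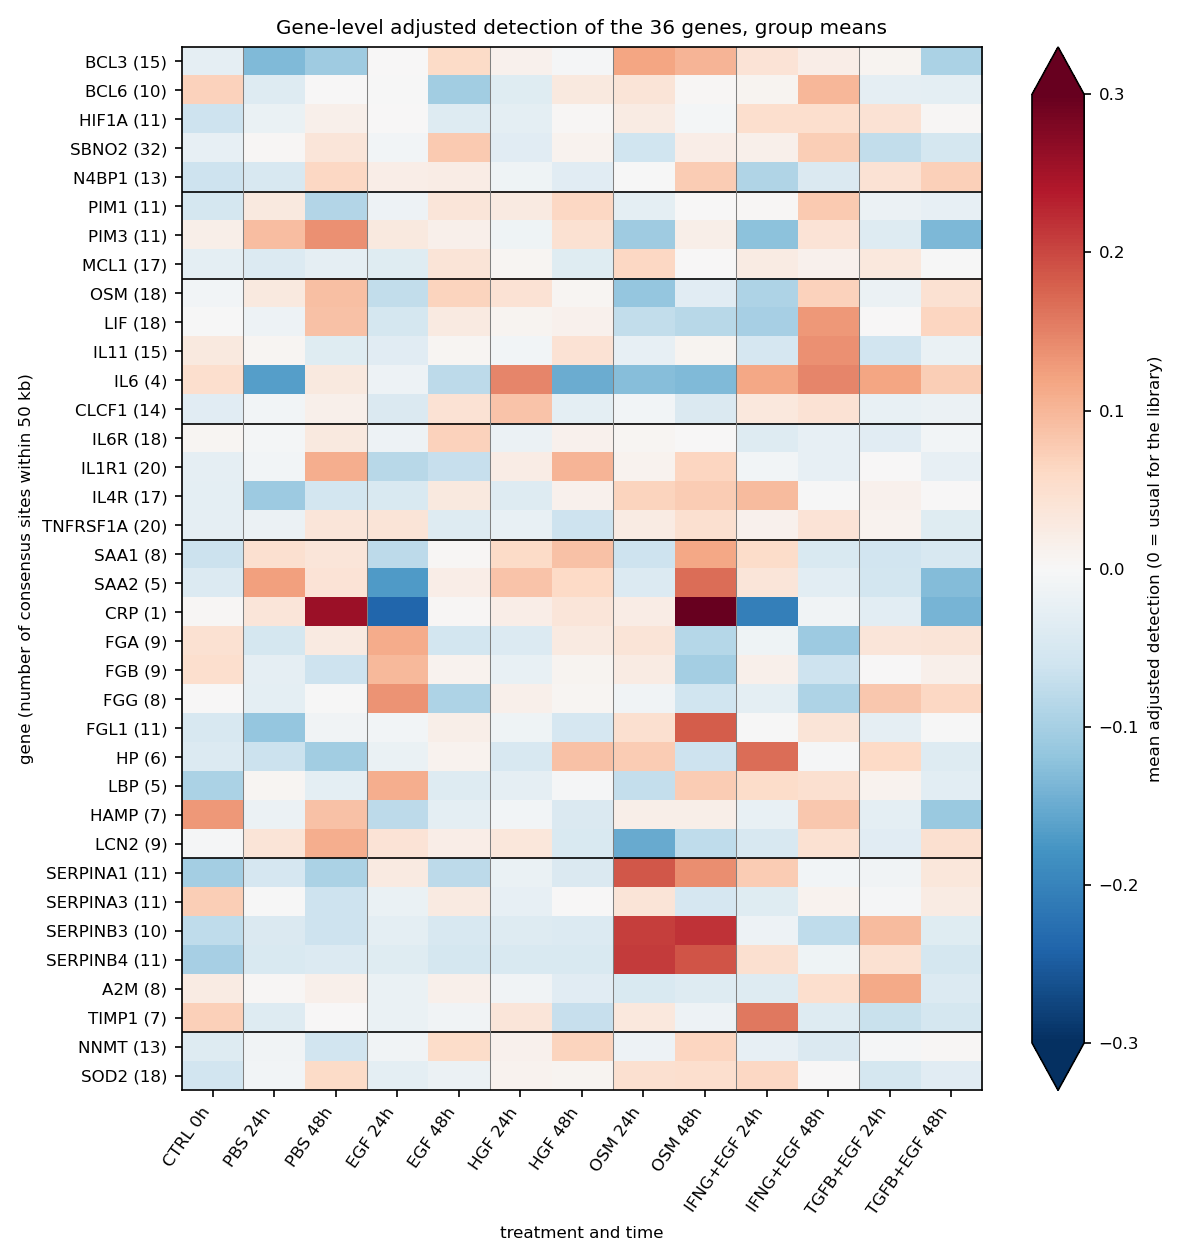
Mean gene-level adjusted detection of the 36 genes in each treatment and time (colour, with 0 as the rate usual for the library; numbers in parentheses are the sites of each gene, and lines separate roles). SERPINB3, SERPINB4, SERPINA1 and BCL3 stand above 0 in both OSM columns, as do others, among them IL4R and FGL1. CRP, with 1 site, has the most extreme colours.

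With OSM against PBS, both times together, 3 of the 389 sites were gained and 3 were lost. A site was called when limma's Benjamini-Hochberg adjusted p over all 129344 sites was below 0.01 and the difference in adjusted detection was at least 0.5. Over the genome 0.309% of sites were gained and 0.188% were lost by this rule, and near the 36 genes 0.771% were gained and 0.771% lost. At an unadjusted p below 0.05, 78 of the 389 sites differed (20.1%, against 13.3% of all sites), 48 higher and 30 lower. The median difference was -0.0083 near the 36 genes and -0.0098 over all sites. The 3 gained and 3 lost sites lay near 7 of the genes, since 1 of them is shared by LIF and OSM. Fitted to the OSM and PBS libraries alone, limma called none of the 6, with an adjusted p of 0.0998 at N4BP1 and higher ones at the other 5, and on detection without adjustment it called N4BP1 alone. Without the 8 libraries under 30000 peaks the N4BP1, SERPINA1, MCL1 and SBNO2 calls stayed, and those of IL1R1 and of LIF and OSM ended (adjusted p = 0.0121 and 0.0268). With the sequencing lane as a term the 3 lost sites missed the threshold (adjusted p = 0.0101 at IL1R1, 0.0131 at LIF and OSM and 0.0164 at SBNO2). Over the strongest 20000 peaks of a library, where the 6 libraries with fewer peaks kept all of theirs, the SERPINA1 call ended (0.0217) and so did that of LIF and OSM (0.0896), which was also lost among peaks with a negative log10 q of at least 5 (difference -0.319, adjusted p = 0.223).

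The gained site with the largest difference was in N4BP1, which encodes an inhibitor of NF-kB-driven cytokine output. It had a peak in 6 of 6 OSM libraries and in 0 of 6 PBS, 0 of 4 CTRL, 0 of 8 EGF and 0 of 6 HGF libraries. Fold enrichment over the local background was 6.36, 5.79 and 6.85 in the OSM libraries at 24 h and 8.48, 6.31 and 4.65 at 48 h. One library of IFNG + EGF (4.35) and 1 of TGFB + EGF (5.48) also had a peak there. The groups thus did not overlap in detection, and the difference was 0.970 (SE 0.122; limma adjusted p = 9.36e-05). The N4BP1 promoter itself, 1736 bp away, was detected in 3 of 6 OSM and 4 of 6 PBS libraries.

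The SERPINA1 site lay 9329 bp from a start of the gene, which encodes the elastase inhibitor alpha-1-antitrypsin, and 7219 bp from SERPINA2. It had a peak in 5 of 6 OSM libraries, with fold enrichment of 7.83, 7.48 and 6.44 at 24 h and of 12.4 and 5.32 at 48 h, and in 0 of 6 PBS libraries. It was not limited to OSM, since 4 of 4 CTRL, 8 of 8 EGF and 5 of 6 HGF libraries also had it. PBS was the one group in which no library had it. The OSM and PBS groups overlapped only through the 1 OSM library at 48 h with 11798 peaks, and the difference was 0.797 (SE 0.136; limma adjusted p = 0.00304). Without OSM 48 h replicate C the adjusted p was 0.0174, and in every other fit that left out 1 library the site stayed called.

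The MCL1 site lay in the gene of an anti-apoptotic BCL2 family protein, 2498 bp from one of its starts. It was found in 4 of 6 OSM libraries, all 3 at 24 h and 1 at 48 h, in 0 of 6 PBS libraries and in 1 of 6 libraries of IFNG + EGF. Its fold enrichment was low, at 2.25, 2.65 and 2.78 at 24 h and 2.42 at 48 h. The difference was 0.650 (SE 0.126; limma adjusted p = 0.00749). Of the 172 stretches of 30 bases around its summit, 84 occur more than once in hg38, 1 of them 93724 times, and the part of read placement in this peak was not tested. None of the 5 printed sequences of called sites has a repeated stretch of that length. Leaving out single libraries ended the MCL1 call in 11 of 42 fits (CTRL A to D, PBS 24 h B and C, PBS 48 h A and B, EGF 48 h C, OSM 24 h B and C), with an adjusted p of at most 0.0185.

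Of the lost sites, those of IL1R1 and of LIF and OSM were also common in CTRL and EGF libraries. The IL1R1 site, 15856 bp from a start of the gene of the interleukin-1 receptor, had a peak in 6 of 6 PBS libraries (fold enrichment 12.1, 6.25 and 6.89 at 24 h, and 6.12, 6.70 and 6.05 at 48 h) and in 2 of 6 OSM libraries (3.35 at 24 h and 6.49 at 48 h). It was also found in 4 of 4 CTRL and 7 of 8 EGF libraries, and in 1 of 6 with TGFB + EGF. The groups overlapped through the 2 OSM libraries with the most peaks, and the difference was -0.698 (SE 0.129; limma adjusted p = 0.00559). The call ended in 5 of 42 fits (without PBS 24 h B or C, OSM 24 h B or C, or OSM 48 h C), with an adjusted p of at most 0.0251.

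The site 17937 bp from LIF and 37016 bp from OSM, the genes of 2 ligands of the IL-6 family, was found in 6 of 6 PBS and in 2 of 6 OSM libraries. Its fold enrichment was 13.5, 5.44 and 4.05 with PBS at 24 h and 10.8, 8.17 and 4.80 at 48 h, against 4.62 and 4.89 in the 2 OSM libraries. All 4 CTRL, 8 EGF and 6 HGF libraries had it as well, and the difference between OSM and PBS was -0.670 (SE 0.133; limma adjusted p = 0.00859). The site 12178 bp from SBNO2, a transcriptional corepressor induced by STAT3, lay 3504 bp from POLR2E. It was found in 5 of 6 PBS libraries, with fold enrichment of 7.08, 6.27 and 4.71 at 24 h and 4.87 and 5.46 at 48 h, and in 1 of 6 OSM libraries, at 3.40. The difference was -0.721 (SE 0.150; limma adjusted p = 0.00945). Both adjusted p-values lay just under the threshold: leaving out 1 library kept the LIF and OSM call in 16 of 42 fits and the SBNO2 call in 14 of 42, with an adjusted p of at most 0.0406.

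A pattern of 5 or 6 OSM libraries against at most 1 of PBS was shown by 3 of the 389 sites near the 36 genes. The reverse was shown by the SBNO2 site alone. How many sites over the genome show either pattern was not counted, so these counts have no background share. The third of the 3 sites, after N4BP1 and SERPINA1, lay 19937 bp from TNFRSF1A, the gene of the main TNF receptor, and 121 bp from the sodium channel gene SCNN1A. It was found in 5 of 6 OSM and 1 of 6 PBS libraries, and in 4 of 4 CTRL and 8 of 8 EGF libraries. Its difference of 0.668 (SE 0.160) did not pass the threshold (limma adjusted p = 0.0206), and it passed without PBS 24 h A or without PBS 48 h C (lowest adjusted p 0.00346).

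**Figure D2:**
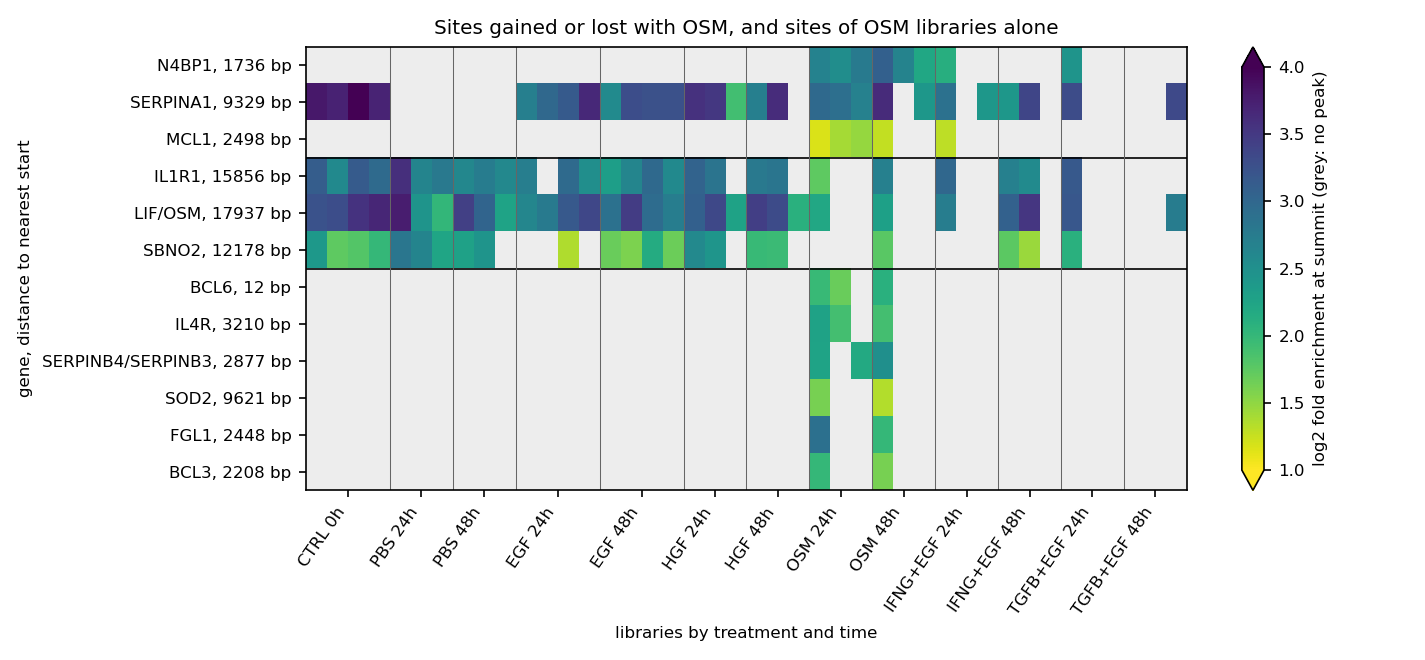
Log2 fold enrichment at the summit (colour; grey where no peak was listed) in each of the 42 libraries, in order of treatment and time, for the 3 sites gained and the 3 lost with OSM and for 6 sites found in OSM libraries alone. The N4BP1 row is filled in 6 of 6 OSM libraries, the SERPINA1 row is empty in 6 of 6 PBS libraries, and the rows of the OSM-only sites are filled in 2 or 3 libraries each.

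Sites found in at least 2 OSM libraries and in no library of any other treatment numbered 6 near the 36 genes, or 1.54% of the 389, against 500 (0.387%) over the genome. They lay 12 bp from a start of BCL6, a transcriptional repressor whose motif resembles the STAT palindrome, 3210 bp from IL4R, 2877 bp from SERPINB4 and 14751 bp from SERPINB3, 9621 bp from SOD2, 2448 bp from FGL1 and 2208 bp from BCL3. The BCL6, IL4R and SERPINB4/SERPINB3 sites had a peak in 2 OSM libraries at 24 h and 1 at 48 h, and the other 3 had 1 at each time. Fold enrichment ran from 3.23 to 4.27 at BCL6, from 3.72 to 4.82 at IL4R and from 4.53 to 5.69 at SERPINB4/SERPINB3. All 6 sites had a peak in replicate A of OSM at 24 h and in replicate A at 48 h, the 2 OSM libraries with the most peaks (109778 and 77169). The 4 CTRL libraries, which listed 109226 to 113805 peaks, had none of them. No site of the 6 passed the threshold for a call (the lowest limma adjusted p was 0.0243, at BCL6 and IL4R). The SERPINB4/SERPINB3 site lay nearest to SERPINB11, at 446 bp.

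A STAT palindrome lay within 100 bp of the summit at 30 of the 389 sites (7.71%), against 7.66% of all sites. It was present at 15.2% of the 400 sites gained with OSM over the genome, at 6.58% of the 243 lost, and at 19.2% of the 500 sites found with OSM alone. Near the 36 genes, none of the 6 called sites had it and 4 of the 6 OSM-only sites did. The matches were TTCACAGAA and TTCCAGGAA at BCL6, TTCCAAGAA at IL4R, TTCCAAGAA at SERPINB4/SERPINB3 with its centre on the summit, and TTCTGGGAA at BCL3, 5 bp from the summit. In the printed sequences these are the runs of 9 capitals, beside the NF-kB run GGACTTTCC at BCL3. Among the 30 sites with a palindrome the median difference between OSM and PBS was 0.0249, and 17 were higher; without it the median was -0.0083. The narrower form TTCCNGGAA was present at 1.54% of the 389 sites and 0.919% of all, C/EBP at 11.8% and 14.2%, AP-1 at 33.2% and 37.1%, and NF-kB at 2.31% and 1.23%. A match is a description of letters and does not show that a factor was bound.

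**Figure D3:**
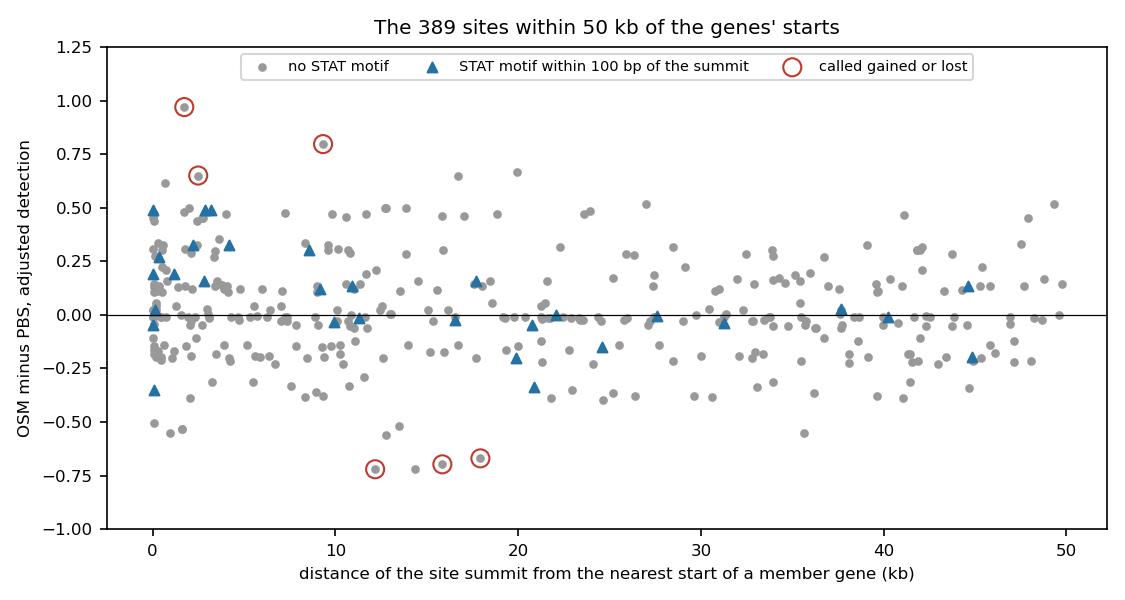
Difference in adjusted detection between OSM and PBS for the 389 sites (vertical axis), by distance of the summit from the nearest start of the 36 genes in kb (horizontal axis). Triangles are the 30 sites with a STAT palindrome and red circles the 6 called sites, none of which is a triangle.

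At the level of genes, adjusted detection was averaged over the sites within 50 kb, and limma was fitted to 19496 protein-coding genes with a threshold of 0.05 on the adjusted p. With OSM against PBS, 5 of the 36 genes were higher (13.9%) and 1 was lower (2.78%), against 1.03% and 1.91% of all genes. The list was chosen with earlier results of these data known, so these shares are not an independent test. The 5 higher genes were SERPINA1, BCL3, SERPINB3, SERPINB4 and IL4R, and the lower one was PIM3. The median difference of the 36 genes was 0.0136, against -0.0176 over all genes. SERPINB3 and SERPINB4 share 9 sites, so their values are largely 1 measurement. The means of BCL3, IL4R, SERPINB3 and SERPINB4 include a site that was kept only because OSM libraries had it. The same holds for BCL6, FGL1 and SOD2, which were not called. Among sites in at least 4 libraries 4 of the 36 genes passed, all higher, with limma adjusted p-values of 0.00213 for SERPINA1, 0.00579 for BCL3, 0.0271 for SERPINB3 and 0.0413 for SERPINB4, while IL4R was at 0.0920 and PIM3 at 0.0556. Fitted to the OSM and PBS libraries alone BCL3 was the only gene that passed, and on detection without adjustment none did. In a 10 kb window BCL3 and SERPINA1 passed, SERPINA1 with a difference of 0.463, and SERPINB3 (0.0715) and SERPINB4 (0.159) did not. Over the strongest 20000 peaks BCL3 was at 0.126 (limma adjusted p = 0.327), SERPINB3 at 0.0195 (0.998) and SERPINA1 at 0.426 (0.0190), and among peaks with a negative log10 q of at least 5 BCL3 was at 0.139 (0.0399).

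Among the regulators, 1 of 5 passed. BCL3, an IkB family protein that partners NF-kB in the nucleus and is a STAT3 target, has 15 sites at chr19:44747705-44760044 and around it. The share of them with a peak was 93.3%, 73.3% and 46.7% in the OSM libraries at 24 h and 80.0%, 13.3% and 53.3% at 48 h, and 60%, 33.3% and 33.3% with PBS at 24 h and 33.3%, 46.7% and 6.67% at 48 h. After adjustment for the library, OSM lay between 0.0116 and 0.188 (median 0.135) and PBS between -0.192 and -0.0506 (median -0.117). The 2 groups did not overlap, and the difference was 0.230 (SE 0.0424; limma adjusted p = 0.00292). A site 669 bp from a BCL3 start was found in 4 of 6 OSM and 0 of 6 PBS libraries, and in 4 of 4 CTRL libraries (difference 0.614, limma adjusted p = 0.0247). CTRL was between -0.134 and 0.0817 at the gene level, above PBS at its median. BCL6 (0.0398), N4BP1 (0.0310), HIF1A (0.0133) and SBNO2 (-0.0390) did not pass, so the N4BP1 site was 1 of 13 sites of a gene whose mean was not called.

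The kinases and survival genes gave 1 call of 3. PIM3, a serine/threonine kinase of the PIM family, was at 0.0882 at most with OSM (median -0.0573, lowest -0.147) and between -0.0547 and 0.246 with PBS (median 0.156). The groups overlapped, with 3 of 6 OSM libraries below every PBS library, and the difference was -0.160 (SE 0.0447; limma adjusted p = 0.0412). The call was lost in 13 of 42 fits that left out 1 library, with an adjusted p of up to 0.124; these were the fits without PBS 24 h A or C, PBS 48 h B or C, EGF 24 h A, OSM 24 h A, B or C, OSM 48 h B or C, TGFB + EGF 24 h B or C, or TGFB + EGF 48 h A. It was also lost with lane as a term (0.0659), among sites in at least 4 libraries (0.0556) and in a 10 kb window (difference -0.0704, adjusted p = 0.789), whereas the difference was -0.599 over the strongest 20000 peaks and -0.265 among peaks with a negative log10 q of at least 5. MCL1 (0.0647) and PIM1 (0.0164) did not pass.

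None of the 5 ligands and 1 of the 4 receptors passed. OSM itself had a difference of -0.136 (limma adjusted p = 0.0882) and LIF one of -0.115 (0.189), while IL6 was at -0.0614, CLCF1 at -0.0304 and IL11 at 0.0081. IL4R encodes the receptor chain for IL-4 and IL-13, at chr16:27313668-27364778, and has 17 sites. With OSM it lay between -0.00011 and 0.127 (median 0.0891), and with PBS between -0.193 and -0.0355 (median -0.0652). These groups did not overlap, and the difference was 0.154 (SE 0.0400; limma adjusted p = 0.0286). The call ended without PBS 24 h B, PBS 48 h A, B or C, OSM 24 h C, or OSM 48 h B or C (highest adjusted p 0.0798), among sites in at least 4 libraries (0.0920) and in a 10 kb window (0.275), and over the strongest 20000 peaks the difference was 0.624. TNFRSF1A (0.0260), IL6R (-0.0073) and IL1R1 (-0.0138) lay near 0.

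Of the 11 secreted acute-phase proteins none passed, 5 being higher and 6 lower. LCN2 had the lowest value of all 36 genes. It was the nearest protein-coding gene at 1 of its 9 sites, against 9 of 11 for FGL1 and 0 of 7 for HAMP. LCN2 lay between -0.216 and 0.0408 with OSM (median -0.127) and between -0.0094 and 0.153 with PBS (median 0.0638), and 5 of 6 OSM libraries were below every PBS library. Its difference was -0.187 (SE 0.0554; limma adjusted p = 0.0567). It did pass as lower with library weights (-0.199, adjusted p = 0.0172), among peaks with a negative log10 q of at least 5 (-0.200, 0.0170) and in a 10 kb window (-0.443, 0.0204). FGL1, a fibrinogen-like hepatokine, was at 0.179 (SE 0.0558; limma adjusted p = 0.0709), with 4 of 6 OSM libraries above every PBS library. The other 9 ran from -0.0198 (FGG) to 0.0913 (HP, the haemoglobin scavenger haptoglobin), with SAA1 at -0.0148, SAA2 at -0.0194, FGA at -0.0102, FGB at 0.0061, LBP at 0.0138, HAMP at -0.0179 and CRP, from its single site, at 0.0263.

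The protease inhibitors gave 3 calls of 6, all higher. SERPINA1 has 11 sites, at chr14:94376747-94390693 and around it. With OSM it lay between -0.0195 and 0.274 (median 0.178) and with PBS between -0.133 and 0.0666 (median -0.109). The OSM library at 48 h with 11798 peaks was the 1 that overlapped the PBS range, and the difference was 0.236 (SE 0.0416; limma adjusted p = 0.00204). The promoter of SERPINA1 was detected in 5 of 6 OSM and 1 of 6 PBS libraries, and in 4 of 4 CTRL and 8 of 8 EGF libraries. SERPINB3 and SERPINB4, the neighbouring squamous cell carcinoma antigen serpins on chromosome 18, had differences of 0.265 (SE 0.0641; limma adjusted p = 0.0188) and 0.243 (SE 0.0606; limma adjusted p = 0.0226). SERPINB3 was at 0.222, 0.139 and 0.260 with OSM at 24 h and at 0.618, -0.0454 and 0.0749 at 48 h, against -0.0803 to -0.0208 with PBS. For both serpins 5 of 6 OSM libraries lay above every PBS library. Some of the sequence at their shared sites occurs more than once in the genome, counted in stretches as for the MCL1 site. Of 172 stretches, 139 were repeated at the shared site 2124 bp from SERPINB4 and 131 at that 2778 bp from SERPINB3. At the shared sites 70 bp from SERPINB4 and 78 bp from SERPINB3, 63 and 71 were repeated. At their other shared sites 0 to 37 were. The part of read placement in both calls was not tested. The share of SERPINB3 sites with a peak was 70.0% and 90.0% in the 2 OSM libraries with the most peaks and 60% at most in CTRL libraries. It was not limited to OSM: TGFB + EGF 24 h A, with 108125 peaks, was also at 70.0%, with an adjusted detection of 0.224. PBS 24 h A, EGF 24 h D and HGF 24 h A, which listed 104875, 103106 and 102330 peaks, were at 40.0%. The SERPINB4 call ended without PBS 48 h A or B or OSM 48 h A (highest adjusted p 0.0562), and over the strongest 20000 peaks its difference was -0.234 (limma adjusted p = 0.107). SERPINA3 (0.0262), TIMP1 (0.0271) and A2M (-0.0518), and the enzymes NNMT (0.0587) and SOD2 (0.0250), did not pass.

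**Figure D4:**
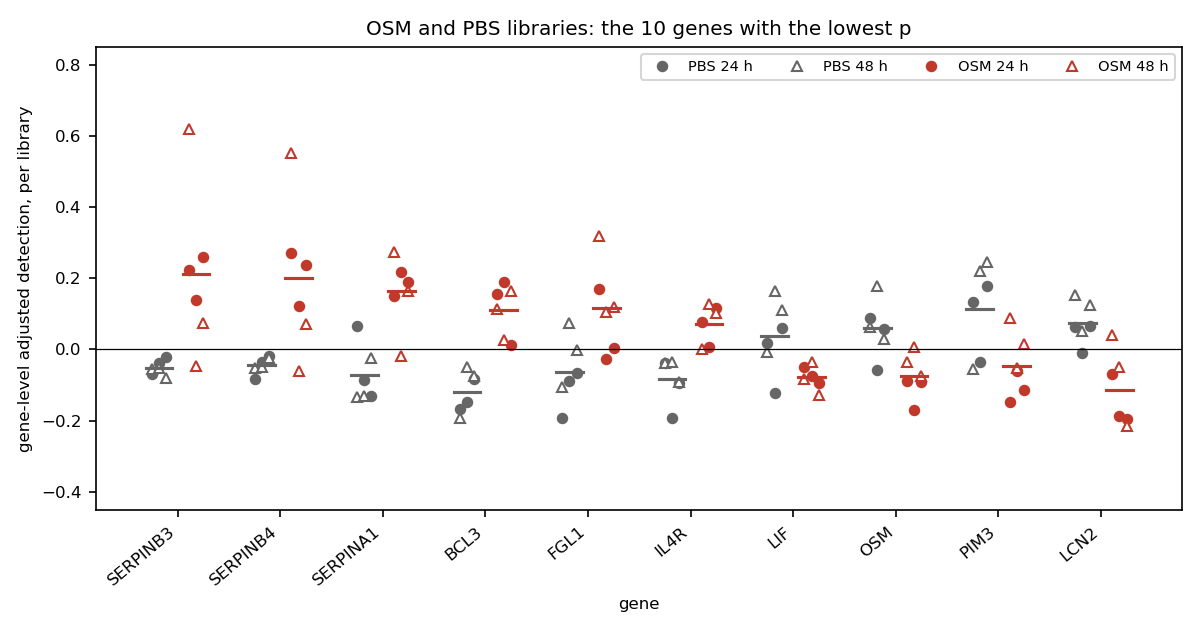
Gene-level adjusted detection in each OSM (red) and PBS (grey) library for the 10 genes of the list with the lowest p (circles 24 h, triangles 48 h, lines the mean of 6 libraries). The OSM and PBS points do not overlap for BCL3 and IL4R, and for SERPINA1, SERPINB3 and SERPINB4 1 OSM library lies inside the PBS range.

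**Figure D5:**
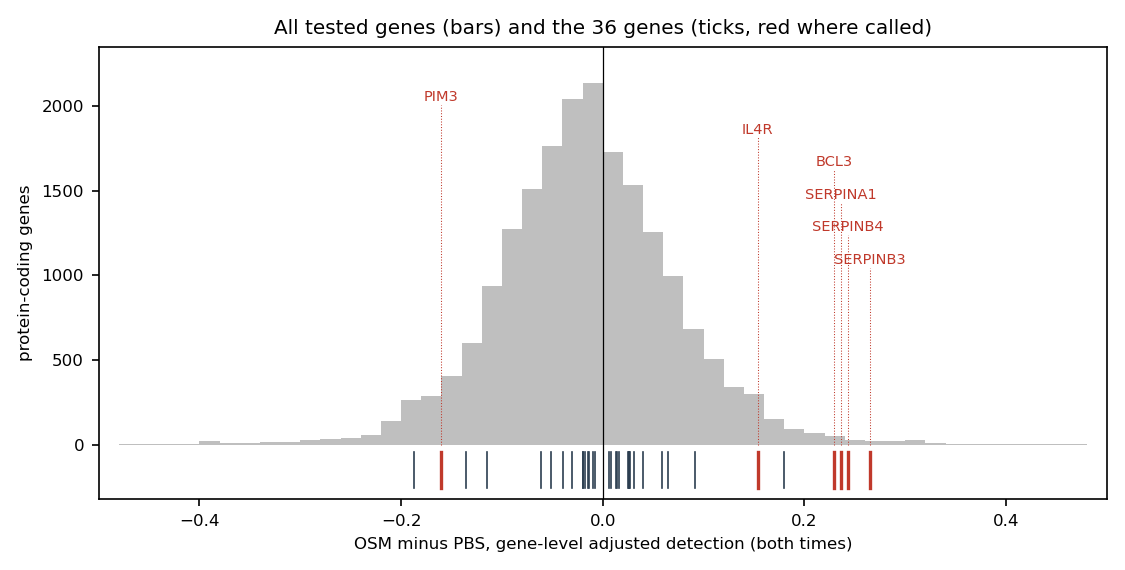
Difference between OSM and PBS in gene-level adjusted detection: the number of protein-coding genes per bin of 0.02 (bars) and the 36 genes (ticks, red where called). The 5 higher genes lie between 0.154 and 0.265, in the upper part of the distribution of all genes, and PIM3 at -0.160.

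The times were also tested apart. At 24 h limma called 0 of the 389 sites (0.0201% of all sites), with 58 at an unadjusted p below 0.05, and at 48 h it called 0 (0.0155% of all), with 46 at that level. With library weights the calls were 13 and 3. The N4BP1 difference was 0.984 at 24 h and 0.955 at 48 h, with adjusted p-values of 0.0111 and 0.0209. The MCL1 difference was 0.993 at 24 h and 0.307 at 48 h, and that of SBNO2 was -1.05 and -0.391. The difference between the times was, however, called at 0 of the 389 sites (0.00309% of all), and at 1 over the strongest 20000 peaks. For it 22 sites had an unadjusted p below 0.05 (5.66%, against 5.20% of all). At the gene level BCL3 passed at 24 h (0.252; limma adjusted p = 0.0464; 0.4% of all genes passed), and at 48 h none of the 36 genes did (0.19% of all genes), with 8 at an unadjusted p below 0.05 and SERPINA1 lowest at an adjusted p of 0.0732. How many of all genes reached that unadjusted level was not counted. The 24 h count of sites was 2 without PBS 24 h A, 4 without OSM 24 h A, 1 without OSM 24 h B and 3 without OSM 24 h C, and the 48 h count was 2 without PBS 48 h C and 1 without OSM 48 h A or B.

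Where a site is found in all 12 OSM and PBS libraries, detection cannot differ between these groups, and the strength of the peak was compared there. This applied to 26 sites near 16 of the 36 genes. None was called at a limma adjusted p below 0.05 (1.15% of the 5673 such sites over the genome were). An unadjusted p below 0.05 was reached by 11, and how many of the 5673 reached it was not counted. With library weights 5 were called, with the negative log10 p as the strength 3, and without OSM 24 h A or without OSM 48 h A 1. Of the 26, 21 were lower with OSM and 5 higher, and the median difference in log2 fold enrichment was -0.24, against -0.015 over all 5673. The lowest p was at a site 18582 bp from TNFRSF1A. Its normalised fold enrichment was 9.24, 10.7 and 9.36 with PBS at 24 h and 9.73, 9.38 and 9.49 at 48 h, and 6.26, 6.75 and 5.32 with OSM at 24 h and 9.74, 7.99 and 5.48 at 48 h. OSM lay below PBS in 5 of 6 libraries, and the log2 difference was -0.51 (SE 0.14; limma adjusted p = 0.0619).

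The other ligands were compared with their own medium. PBS is also the reference of OSM, and EGF that of both combined treatments, so these comparisons share libraries with each other. With EGF against PBS 53 of the 389 sites had an unadjusted p below 0.05 (13.6%, against 13.3% of all sites). Of the 389 sites 1 was called, which was lost (0.195% of all sites were lost). It lay in an intron of IL1R1, 2037 bp from a start, and was found in 1 of 8 EGF, 5 of 6 PBS, 3 of 6 OSM and 3 of 4 CTRL libraries, with a difference of -0.999 (SE 0.176; limma adjusted p = 0.00360). This call ended without PBS 24 h B or C or PBS 48 h A or B (highest adjusted p 0.0273) or with lane as a term (0.0113), and the count became 7 without PBS 24 h A or PBS 48 h C, 2 without EGF 24 h C, and 0 without PBS 24 h B or PBS 48 h A or B. At the gene level BCL3 was higher with EGF too, by 0.148 (SE 0.0396; limma adjusted p = 0.0413; 1.94% of all genes passed), at a range of -0.102 to 0.128 over 8 EGF libraries. HGF against PBS called 0 sites (0.000773% of all), and 4 with library weights. An unadjusted p below 0.05 was reached by 37 (9.51%, against 7.38% of all sites). TGFB + EGF against EGF called 0 (0.00232% of all), and on detection without adjustment 16, all lost. For it 15 sites reached an unadjusted p below 0.05 (3.86%, against 7.78% of all sites). Of the 6 TGFB + EGF libraries 4 had under 30000 peaks.

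IFNG + EGF against EGF gained 3 of the 389 sites (0.771%) and lost none, while 1.12% of all sites were gained. An unadjusted p below 0.05 was reached by 42 sites (10.8%, against 13.8% of all sites). The site 17574 bp from PIM1 was found in 5 of 6 libraries of IFNG + EGF, with fold enrichment from 5.28 to 11.9, and in 0 of 8 EGF libraries, and also in 1 OSM and 1 CTRL library. The difference was 0.885 (SE 0.135; limma adjusted p = 8.79e-05), and 58 of the 172 stretches of 30 bases around its summit occur more than once in hg38. A site 10829 bp from a SOD2 start, in an untranslated exon of that gene, was found in 4 of 6 libraries of IFNG + EGF and 0 of 8 of EGF, and in 5 of 6 OSM and 3 of 6 PBS libraries (difference 0.842, SE 0.187; limma adjusted p = 0.00610). A site 39585 bp from SERPINB4, in an untranslated exon of SERPINB13, was found in 4 of 6 and 0 of 8 (difference 0.700, SE 0.151; limma adjusted p = 0.00555). The PIM1 call held in all 14 fits that left out 1 library, the SOD2 call in 5 of them and the SERPINB4 call in 7, with an adjusted p of at most 0.0472. The SOD2 call ended without EGF 24 h C or D, EGF 48 h B, C or D, IFNG + EGF 24 h A or C, or IFNG + EGF 48 h A or B, and the SERPINB4 call without EGF 24 h C or D, EGF 48 h C, IFNG + EGF 24 h A or C, or IFNG + EGF 48 h A or B. Among peaks with a negative log10 q of at least 5 both missed the threshold (adjusted p = 0.261 and 0.0493). At the gene level none of the 36 genes passed (2.7% of all genes did). An unadjusted p below 0.05 was reached by 3, and how many of all genes reached it was not counted.

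The signalling chain upstream of these genes was read from 27 genes of the JAK-STAT pathway. With OSM against PBS 1 of 27 passed at the gene level, as higher (1.03% of all genes were), and none passed as lower (1.91%). An unadjusted p below 0.05 was reached by 2, without a count over all genes. SOCS3, the feedback inhibitor that STAT3 induces, was higher by 0.164 (SE 0.0423; limma adjusted p = 0.0272), and CEBPD, a C/EBP factor of the acute phase, was at 0.198 (limma adjusted p = 0.222). The receptor genes OSMR (0.0063), IL6ST (0.0145) and LIFR (0.0355) and STAT3 itself (0.0042) lay near 0. The SOCS3 call ended without PBS 24 h B, PBS 48 h A or B, OSM 24 h B, or OSM 48 h B or C. With IFNG + EGF against EGF, SOCS1, another feedback inhibitor of the pathway, was higher by 0.212 (limma adjusted p = 0.0339), the phosphatase gene PTPN2 by 0.145 (0.0402) and IL6ST by 0.246 (0.0438), in a comparison in which 2.7% of all genes passed. The difference between the OSM and IFNG effects was not tested.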

How the data were processed

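Narrow peak lists of 42 ATAC-seq libraries were used. Per the labels and the study's methods, the authors trimmed paired reads with Trimmomatic 0.36.5, aligned them to hg38 with Bowtie2 2.3.4.1, removed secondary, unmapped, mitochondrial and duplicate alignments (Picard), and called peaks in each library alone with MACS2 2.1.1.20160309.5, without a control library. The submitters' processing notes also name deepTools 3.1.2. In their own analysis the authors removed ATAC-seq samples with a low fraction of reads in peaks, IFNG + EGF samples among them. Which of the libraries used here were among these was not known, and none was left out of the main fits for that reason. The deposited columns are positions, a score (10 times −log10 q), the fold enrichment (a ratio of pileup to local background at the summit), and the −log10 p and −log10 q. They hold no read counts, so depth was unknown, no counting interval is given, and the number of peaks limits what could be detected. All 353 chromosome and contig names matched the reference.

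From these, peaks on the primary chromosomes were merged at an overlap of 1 bp or more. Sites were placed against GENCODE release 44, and a promoter was the 1 kb around a start. Adjusted detection, its mean per gene, and quantile-normalised log2 fold enrichment were compared with limma 3.58.1 in R 4.3.3. All 42 libraries in 13 groups entered the detection fits (29 residual degrees of freedom), and the 12 OSM and PBS libraries entered the strength fit (8). The threshold on the adjusted p was 0.01 for sites, with a minimum difference of 0.5, and 0.05 for genes and strength. The scripts were tested on simulated data. Motifs were searched in hg38 on both strands. Groups came from the labels, and the study's methods call the letters biological replicates; where these were not separate cultures, p-values measure the spread between libraries only. The members and lists were chosen with earlier results of these data known. Named were all members by role, all called sites, sites in 5 or 6 libraries of one arm and at most 1 of the other, promoter sites, and otherwise the 3 genes at either end. Alternatives were detection without adjustment, the compared groups alone, stricter peaks or sites, a 10 kb window, library weights, sequencing lane, a replicate block, another strength measure, and leaving out each library. Correlations of the deviations of OSM and PBS libraries ran from -0.016 to 0.069 for the same letter and from -0.061 to 0.014 for different letters. The highest were those of replicates A (0.049) and C (0.069) at 48 h. All were small, and letters were not used as pairs in the main fits. BMP2 libraries were not analysed here. A pathway gene and a site sequence are not reported here.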

Additional observations from a re-analysis of the deposited data

Results flagged for a closer look

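In groups of 4 libraries, the gap of 1 library's gene-level adjusted detection to the others was examined for the 36 genes in CTRL at 0 h and in EGF at 24 h and 48 h, and 13 of 108 groups stood out. Chance alone flags about 1 in 20 such groups where values are not tied. A gene's share of sites with a peak takes few values, however. In each flagged group the other 3 libraries had the same share (for BCL6 in CTRL 70%, against 60% in replicate D). The number flagged can therefore not be set against that rate. Of the 13 groups, 10 were in CTRL, where for 10 genes 1 of the 4 libraries stood apart from the other 3. BCL6 was at -0.0191 in replicate D (others 0.0868 to 0.107), IL1R1 at -0.149 in D, and FGA and FGB were at 0.203 and 0.206 in D. IL6 was at -0.133 (others 0.106 to 0.123) and LCN2 at -0.0853 in replicate C. SAA1, SAA2 and HP were at -0.161, -0.199 and -0.173 in replicate B, and TIMP1 at -0.237 in replicate A (others 0.168 to 0.184). FGA and FGB share 7 sites, and SAA1 and SAA2 share 5.

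In EGF libraries, IL6 was at -0.239 in replicate A at 48 h, FGB at -0.208 in replicate C at 48 h, and CRP at -0.958 in replicate B at 24 h (others 0.00177 to 0.00459), which is the single CRP site without a peak. Groups of 3 libraries, OSM and PBS among them, were not examined in this way.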

How the results depend on the processing

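The limits are the unknown depth and the wide range of peak numbers: a site with no peak may have been open. Counts under the alternatives are given for the listed genes and their sites, without the share over all sites or genes. For OSM against PBS the 6 called sites were 0 with the compared groups alone, 1 on raw detection, 3 with a replicate block, with lane as a term or in a 10 kb window, 21 with library weights and 17 over the strongest 20000 peaks. Leaving out 1 library gave 2 to 10 (3 without CTRL A to D, PBS 48 h A or B, EGF 48 h C or OSM 24 h B, 2 without PBS 24 h B or C or OSM 48 h C, and 10 without PBS 24 h A). In place of 6, the number of called genes was 0 on raw detection, 1 with the compared groups alone, 3 in a 10 kb window (BCL3 and SERPINA1 of the 6, and LCN2, lower), and 3 to 7 without 1 library (3 without PBS 48 h B). SERPINB4 turned to -0.234 over the strongest 20000 peaks. The 1 JAK-STAT gene became 0 on raw detection, with the groups alone and in a 10 kb window, 5 (all lower) over the strongest 20000 peaks, and 0 to 1 without 1 library. Over the strongest 20000 peaks the counts were 9 at 24 h, 8 at 48 h, 1 for the difference between times, 7 for EGF, 5 for HGF, 1 for IFNG + EGF and 1 for TGFB + EGF. Library weights gave 13 at 24 h, 3 at 48 h, 12 for EGF and 4 for HGF. At 48 h lane gave 1. For EGF the count was 0 with the groups alone or with lane, 1 (gained, not lost) on raw detection or with a replicate block, and 2 for sites in at least 4 libraries. For IFNG + EGF it was 1 with the groups alone, raw detection, a replicate block or a negative log10 q of at least 5, and 0 in a 10 kb window. TGFB + EGF gave 16 on raw detection. Without the 8 libraries under 30000 peaks, a choice made after the data were seen, OSM against PBS still gave 6 sites (5 gained, 1 lost; the IL1R1 and LIF and OSM calls ended, and TNFRSF1A passed at 0.806, adjusted p = 0.00125), 48 h gave 2, EGF 4 and IFNG + EGF 6; PIM3 and IL4R no longer passed (limma adjusted p = 0.185 and 0.0585) and LCN2 did (0.0398). Without 1 library the counts were 0 to 4 at 24 h, 0 to 2 at 48 h, 0 to 7 for EGF, 1 to 6 for IFNG + EGF (1 without EGF 24 h C or D, EGF 48 h C or IFNG + EGF 48 h A or B, 5 without IFNG + EGF 24 h B, 6 without IFNG + EGF 48 h C) and 0 to 1 by strength, where the negative log10 p gave 3, the replicate block 3 and library weights 5. The replicate block left the gene-level count at 6, and under it the MCL1, SBNO2 and LIF and OSM sites missed the threshold (limma adjusted p = 0.0107, 0.0117 and 0.0115), as did the IL1R1 site of EGF (0.0126) and the SOD2 and SERPINB4 sites of IFNG + EGF (0.0198 each). The cause of these changes was not tested.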
